A study of Mus musculus with 12 samples.

Results

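Genes of motile cilia and their axoneme were followed in the olfactory epithelium of mice given liposomes with or without clodronate and then bulbectomised or sham-operated. The set holds 42 named genes, matched to probe sets through the platform's gene symbol or an older alias. A probe set was found for 41 of them (60 probe sets), and none for Lrriq1. Of these, 40 genes passed the filter on dim signals and were tested, among 13628 genes in all. Spag17, a protein of the central pair, had both of its probe sets below the filter.

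Olfactory epithelium was microdissected from C57BL/6J males, 6 weeks old, and its RNA was hybridised to 12 one-colour Affymetrix arrays, 3 per group. Clodronate liposomes (Lip-C), which kill the phagocytes that take them up, were given into the nose (50 µl on 3 days) and into a vein (200 µl). Empty liposomes (Lip-O) were given in the same volumes by both routes. Each was combined with removal of both olfactory bulbs (OBX), which cuts the axons of the olfactory sensory neurons, or with sham surgery, and the tissue was collected 48 h afterwards. The groups were thus Lip-C OBX, Lip-O OBX, Lip-C sham and Lip-O sham, and every animal had received liposomes and an operation. The sample titles call the replicates biological. The labels do not say whether RNA of several mice was pooled, and the p-values measure the spread between these samples, which may be technical in part.

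A motile cilium is built on an axoneme, a ring of doublet microtubules around a central pair. Outer and inner dynein arms slide the doublets against each other, radial spokes and nexin links shape that sliding into a beat, and tektins and other proteins line the inside of the doublets. In the nose, cells with many motile cilia belong to the respiratory epithelium, which borders the olfactory epithelium, and Foxj1 and RFX transcription factors switch on their axoneme genes. Olfactory sensory neurons also carry cilia, which hold the odorant receptors, are built by intraflagellar transport and in mammals do not beat. In whole tissue, fewer cells of a type and less RNA per cell cannot be told apart.

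The deposited signals are linear intensities, scaled to a trimmed mean of 500 on each array. Array medians ran from 117.5 to 134.2, and the 40th percentile that the filter used from 65.3 to 79.3. Mean signals of the 40 members over the 12 arrays ran from 179 to 5536. The 3′ to 5′ signal ratio of the transferrin receptor control probe sets, which grows as RNA is shortened, was 3.79 to 4.28 in Lip-C OBX mice, 3.91 to 4.80 in Lip-O OBX mice, 3.98 to 4.10 in Lip-C sham mice and 3.02 to 3.47 in Lip-O sham mice. The Lip-O sham arrays lay below the other 9 in this ratio and in the Gapdh ratio (0.767 to 0.788, against 0.789 to 0.868 on the others). In the actin ratio they did not stand apart, since their 1.31 to 1.33 lay within the range of the Lip-C OBX arrays. The part of these ratios in the differences from Lip-O sham mice was not tested.

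Promoters are shown because a motif there, which the selection of the members did not use, was found in a larger share of the members than of all genes. The RefSeq promoter table (build GRCm38.p6) held 44 promoters of 34 members. RFX factors bind an X-box made of half-sites, here searched as GTTGCC on both strands over the 250 bases before the start site. The half-site lay in a promoter of 12 of the 34 members (35.3%), against 11.8% of the 27025 genes in the table, and in none of the promoters of the other 22. The 12 were Spag16, Pifo, 1110017D15Rik, Tekt2, Drc1, Ccdc113, Hydin, Dynlrb2, Mns1, Tekt1, Dnaic2 and Ropn1l. The forkhead core TGTTTAC (both strands), a motif of the family Foxj1 belongs to, was found for 1 of 34 members (2.94%, Ak7), against 3.54% of all genes. Printed here are the last 120 bases before the start site, 5′ to 3′ on the gene's strand, for 6 members. Among the members with a half-site there, these had the smallest unadjusted p (limma) in any comparison described further on. Capitals mark GTTGCC or its reverse complement GGCAAC.
Pifo (chr3:106001498-106001617, minus strand): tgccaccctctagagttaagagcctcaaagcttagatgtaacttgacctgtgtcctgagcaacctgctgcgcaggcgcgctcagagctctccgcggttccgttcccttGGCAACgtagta
Drc1 (chr5:30281273-30281392, plus strand): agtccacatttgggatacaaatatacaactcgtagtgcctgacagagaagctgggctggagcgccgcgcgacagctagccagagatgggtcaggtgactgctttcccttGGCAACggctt
Tekt1 (chr11:72361883-72362002, minus strand): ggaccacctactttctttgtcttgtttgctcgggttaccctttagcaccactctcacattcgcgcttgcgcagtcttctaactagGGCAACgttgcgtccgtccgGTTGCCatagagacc
Spag16 (chr1:69826850-69826969, plus strand): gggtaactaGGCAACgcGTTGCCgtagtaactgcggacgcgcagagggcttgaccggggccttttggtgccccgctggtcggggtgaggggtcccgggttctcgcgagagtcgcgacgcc
1110017D15Rik (chr4:41507765-41507884, minus strand): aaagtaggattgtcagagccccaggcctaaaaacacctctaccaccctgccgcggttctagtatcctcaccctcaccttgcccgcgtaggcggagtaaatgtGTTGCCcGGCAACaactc
Hydin (chr8:110266857-110266976, plus strand): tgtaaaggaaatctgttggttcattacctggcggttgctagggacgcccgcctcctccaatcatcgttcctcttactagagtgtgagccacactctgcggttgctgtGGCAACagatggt
The half-site occurred on both strands in Tekt1, Spag16 and 1110017D15Rik, and as a single copy shortly before the start site in Pifo, Drc1 and Hydin. Such a match is a description of these letters and not a binding site. Of the 6 genes, Hydin was higher after OBX in Lip-C mice, and Pifo, Drc1, Tekt1, Spag16 and 1110017D15Rik were lower after OBX in Lip-O mice. The 6 were picked by their p-values, so these changes do not bear on the half-site. Mns1, Ropn1l and Tekt2, which also had a half-site, were called with OBX in neither liposome group.

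The crossed design asks whether OBX acts on these genes alike with and without clodronate. In Lip-C mice OBX raised 8 of the 40 members and lowered 5, whereas in Lip-O mice it raised none and lowered 22. Differences are on the log2(signal + 16) scale and come from a limma model over all 13628 genes, with a Benjamini-Hochberg adjusted p under 0.05 as the threshold. Among all genes, OBX raised 10.3% and lowered 8.83% in Lip-C mice, and raised 10.7% and lowered 8.83% in Lip-O mice. The members' median change was 0.11 in Lip-C mice and -0.41 in Lip-O mice, where the medians over all genes were 0.04 and 0.05. In Lip-C mice the 3 OBX arrays lay above the 3 sham arrays for 13 members (23% of all genes) and below them for 8 (17.1%). In Lip-O mice they lay above for none (21.6% of all genes) and below for 24 (16.2%).

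**Figure D1:**
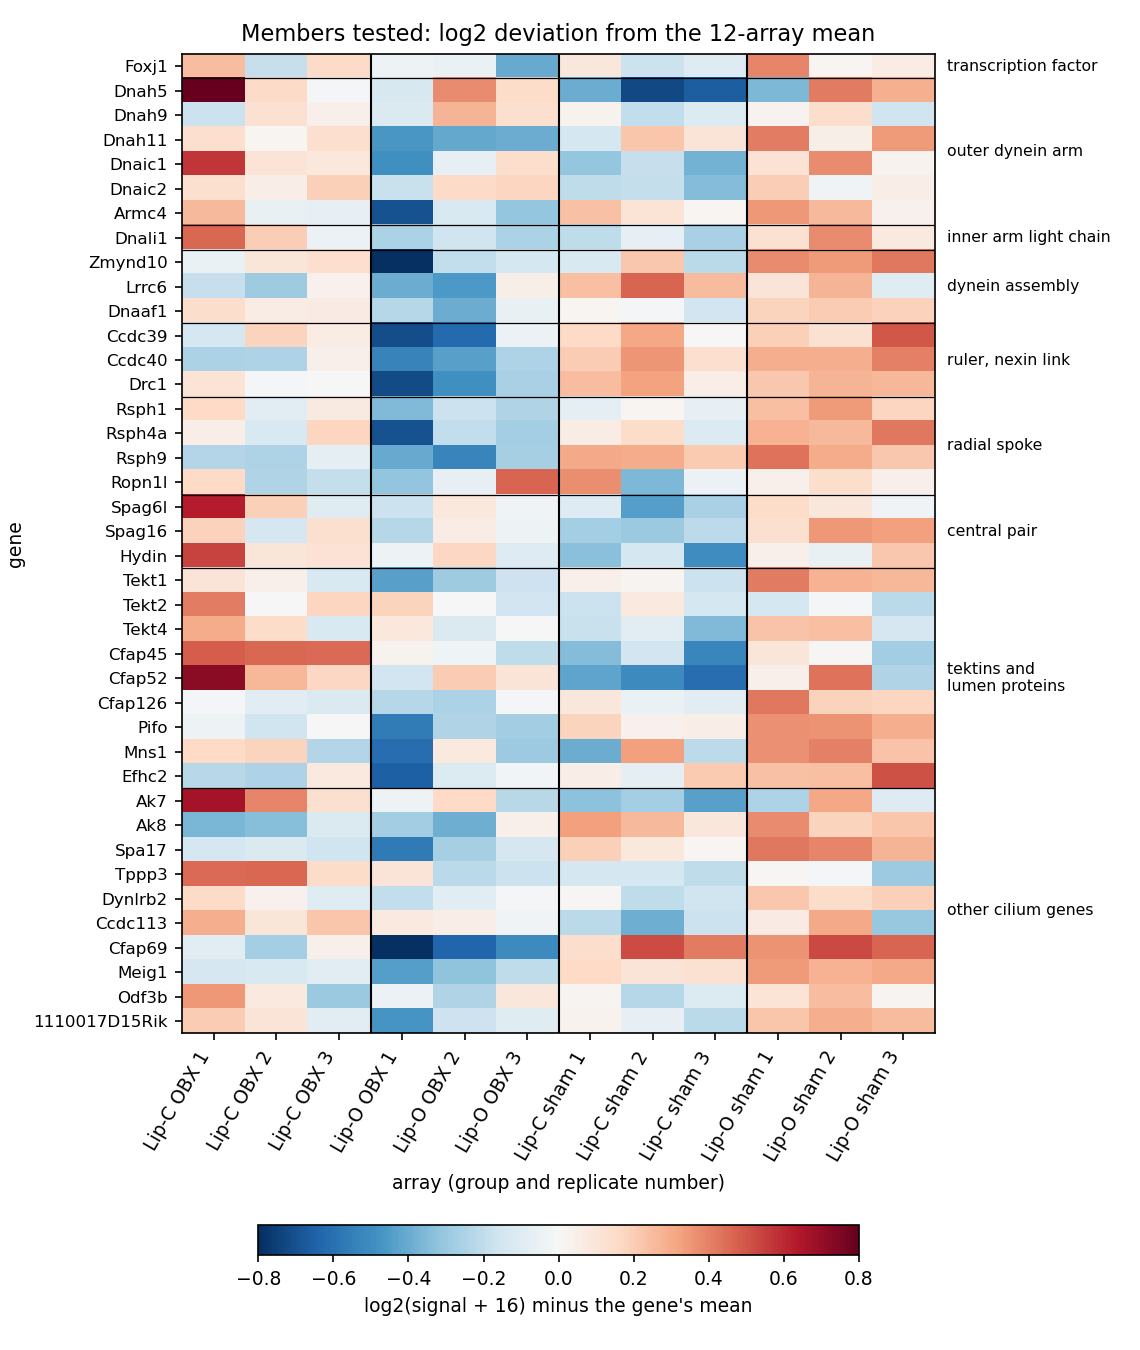
Each row is 1 of the 40 members tested, ordered by role, and each column 1 array; colour gives log2(signal + 16) minus the gene's mean over the 12 arrays, from blue (lower) to red (higher). Most rows are blue in the 3 Lip-O OBX columns and red in the 3 Lip-O sham columns, while Cfap45, Cfap52 and Ak7 are red in the Lip-C OBX columns.

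The per-array medians of the members showed where the groups stood. The median deviation from each gene's own mean was 0.16, 0.04 and 0.04 on the Lip-C OBX arrays and -0.30, -0.16 and -0.12 on the Lip-O OBX arrays. It was 0.02, -0.06 and -0.12 on the Lip-C sham arrays and 0.22, 0.27 and 0.19 on the Lip-O sham arrays. The Lip-O sham arrays were thus highest and the Lip-O OBX arrays low, with Lip-O OBX replicate 1 the lowest of the 12, and the 6 Lip-C arrays lay between -0.12 and 0.16. Over all genes the same median stayed between -0.03 and 0.04. Summed over the 40 members, the signal was 47019 to 51150.3 in Lip-C OBX mice, 36946 to 42849 in Lip-O OBX mice, 45652 to 48961 in Lip-C sham mice and 54226 to 56795 in Lip-O sham mice. Lip-O sham was the group with the highest mean for 26 of the 40 members, and Lip-O OBX the group with the lowest for 22.

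**Figure D2:**
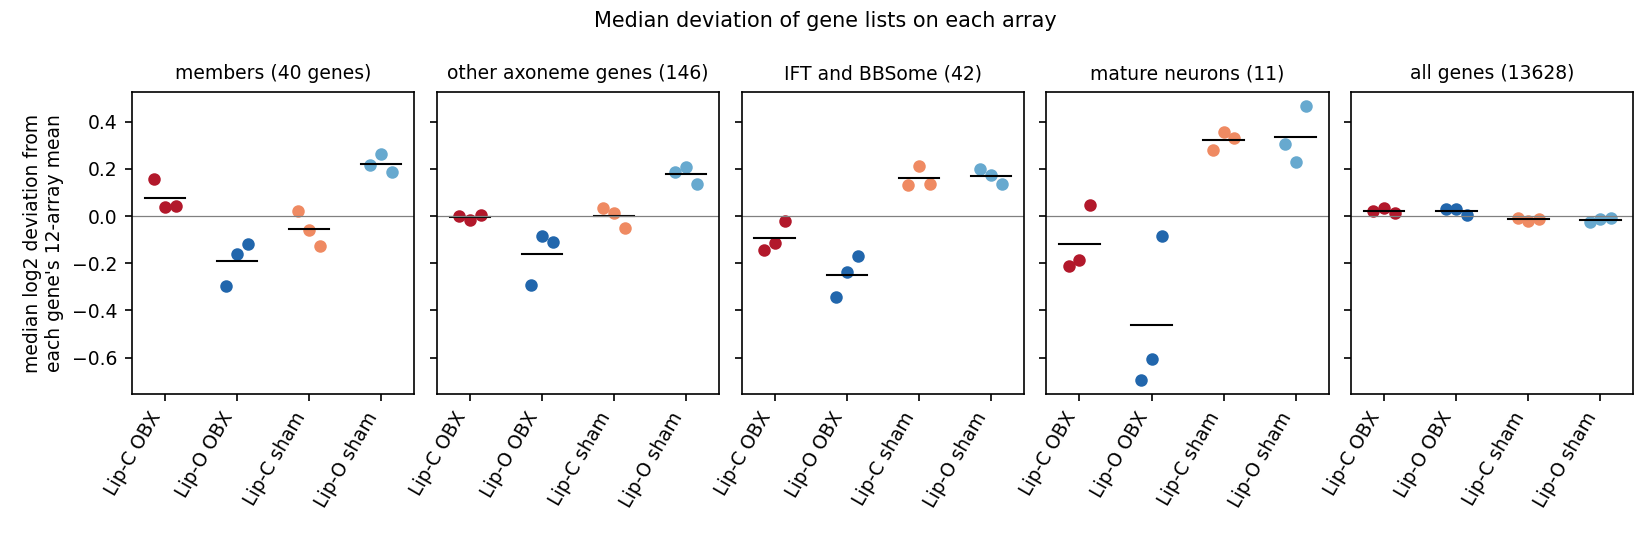
Points are single arrays and black lines group means; the y axis is the median over a gene list of log2(signal + 16) minus each gene's 12-array mean. By group mean, the members and the other axoneme genes are highest in Lip-O sham and lowest in Lip-O OBX mice, though single arrays of the members overlap between Lip-O OBX and Lip-C sham mice. The mature neuron genes are lower in both OBX groups than in the sham groups, and the median of all genes stays near 0.

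Foxj1, the transcription factor that drives the motile cilium programme, did not pass the threshold in any comparison. Its signals were 1258, 928 and 1178 in Lip-C OBX mice, 1029.5, 1022 and 798 in Lip-O OBX mice, 1131, 938 and 983 in Lip-C sham mice, and 1396, 1072 and 1104 in Lip-O sham mice. The Lip-C groups overlapped, and the Lip-O OBX arrays were all below the Lip-O sham arrays. The change with OBX was 0.13 ± 0.15 (adjusted p = 0.566) in Lip-C mice and -0.32 ± 0.15 (adjusted p = 0.163) in Lip-O mice, and the difference between these was 0.45 ± 0.21 (adjusted p = 0.301).

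Genes of the outer dynein arm were divided. Of the 6 tested, OBX raised the heavy chain Dnah5 and the intermediate chain Dnaic2 in Lip-C mice, and lowered the heavy chain Dnah11 and the docking protein Armc4 in Lip-O mice. Dnah11 had signals of 713, 655 and 711 in Lip-C OBX mice, 465, 484 and 487 in Lip-O OBX mice, 585, 758 and 697 in Lip-C sham mice, and 863, 668 and 825 in Lip-O sham mice. The 3 Lip-O OBX arrays lay below all 9 others, and the change was 0.03 ± 0.11 (adjusted p = 0.86) in Lip-C mice and -0.69 ± 0.11 (adjusted p = 0.00373) in Lip-O mice. Dnah5 had signals of 922, 548 and 489 in Lip-C OBX mice, 448, 644 and 545 in Lip-O OBX mice, 369, 292 and 306 in Lip-C sham mice, and 379, 660.1 and 602 in Lip-O sham mice. The Lip-C OBX arrays, with replicate 1 far above the other 2, were all above the Lip-C sham arrays, and the Lip-O groups overlapped. OBX changed Dnah5 by 0.94 ± 0.26 (adjusted p = 0.031) in Lip-C mice and 0.02 ± 0.26 (adjusted p = 0.969) in Lip-O mice. Without Lip-C OBX replicate 1 its change in Lip-C mice was 0.66 and missed the threshold (adjusted p = 0.105). Dnaic2 changed by 0.37 ± 0.11 (adjusted p = 0.0355) in Lip-C mice, with 0.08 on its second probe set, and Armc4 by -0.59 ± 0.15 (adjusted p = 0.0226) in Lip-O mice, and the intermediate chain Dnaic1 passed the threshold in neither.

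Dnah9, a further heavy chain of the outer arm, gave a different answer on each of its probe sets. The one used for the gene changed by 0.09 with OBX in Lip-C mice (adjusted p = 0.691 with every probe set tested). The other averaged 102 ± 16.4 in Lip-C OBX mice and 214 ± 47.3 in Lip-C sham mice (SD, n = 3 each) and changed by -0.95 (adjusted p = 0.00805, limma). With the probe sets of a gene averaged, Dnah9 fell in Lip-C mice (-0.43, adjusted p = 0.0175), so no direction is given for it here.

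Dnali1, a light chain of the inner arms, was lowered by OBX in Lip-O mice and had a positive change in Lip-C mice. The signals of Dnali1 were 1076, 894 and 752 in Lip-C OBX mice, 649, 696 and 651 in Lip-O OBX mice, 673, 742 and 648 in Lip-C sham mice, and 846, 1016 and 821 in Lip-O sham mice. Lip-C OBX arrays lay above Lip-C sham arrays, and Lip-O OBX arrays lay below Lip-O sham arrays, with no overlap in either liposome group. The change was 0.38 ± 0.13 (adjusted p = 0.0614) in Lip-C mice and -0.41 ± 0.13 (adjusted p = 0.0446) in Lip-O mice. Its second probe set changed by 1.10 with OBX in Lip-C mice (adjusted p = 0.0226 with every probe set tested).

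Among the 3 genes for the assembly of dynein arms in the cytoplasm, OBX lowered Zmynd10 and Dnaaf1 in Lip-O mice and none in Lip-C mice. Dnaaf1 had signals of 371, 349 and 350.5 in Lip-C OBX mice, 283, 250.3 and 320.0 in Lip-O OBX mice, 338, 331 and 299 in Lip-C sham mice, and 380.0, 387 and 382 in Lip-O sham mice. Its Lip-O OBX arrays held 3 of the 4 lowest values, and the Lip-O sham arrays the 3 highest. The change was 0.14 ± 0.09 (adjusted p = 0.291) in Lip-C mice and -0.42 ± 0.09 (adjusted p = 0.0109) in Lip-O mice. Its second probe set changed by -0.26 in Lip-O mice (adjusted p = 0.522 with every probe set tested). Zmynd10 averaged 411 ± 108 in Lip-O OBX mice and 699 ± 19.4 in Lip-O sham mice (SD, n = 3 each), a change of -0.78 ± 0.18 (adjusted p = 0.0134). Lrrc6, the other assembly factor, had a negative change in both liposome groups, -0.47 in Lip-C mice and -0.36 in Lip-O mice, without passing the threshold (adjusted p = 0.053 and 0.118).

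All 3 genes of the axoneme ruler and the nexin link were lowered by OBX in Lip-O mice. The nexin link protein Drc1 had signals of 1465, 1343 and 1351 in Lip-C OBX mice, 818, 959 and 1128 in Lip-O OBX mice, 1615, 1697 and 1407 in Lip-C sham mice, and 1581, 1644 and 1636 in Lip-O sham mice. Its Lip-O OBX arrays were the 3 lowest of the 12, and the change was -0.18 ± 0.11 (adjusted p = 0.29) in Lip-C mice and -0.74 ± 0.11 (adjusted p = 0.00272) in Lip-O mice. Ccdc39 and Ccdc40 form the ruler that sets the spacing along the doublets. Ccdc40 fell in both liposome groups, with changes of -0.38 ± 0.11 (adjusted p = 0.0346) in Lip-C mice and -0.73 ± 0.11 (adjusted p = 0.00234) in Lip-O mice, and Ccdc39 changed by -0.13 ± 0.17 (adjusted p = 0.639) in Lip-C mice and -0.73 ± 0.17 (adjusted p = 0.0174) in Lip-O mice.

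The radial spoke head genes Rsph1, Rsph4a and Rsph9 were all lowered by OBX in Lip-O mice, and Rsph9 in Lip-C mice as well. Rsph1 had signals of 2266, 1905 and 2139 in Lip-C OBX mice, 1586, 1798 and 1716 in Lip-O OBX mice, 1919.7, 2054 and 1942 in Lip-C sham mice, and 2405, 2579 and 2295 in Lip-O sham mice. The Lip-O OBX arrays were the 3 lowest of the 12, and the Lip-O sham arrays the 3 highest. The change was 0.09 ± 0.09 (adjusted p = 0.489) in Lip-C mice and -0.51 ± 0.09 (adjusted p = 0.00406) in Lip-O mice. Rsph9 had signals of 2036, 2012 and 2272 in Lip-C OBX mice, 1806, 1657 and 1987 in Lip-O OBX mice, 2962, 2939 and 2766 in Lip-C sham mice, and 3248, 2947 and 2779 in Lip-O sham mice. All 6 OBX arrays were below all 6 sham arrays for Rsph9, with changes of -0.45 ± 0.09 (adjusted p = 0.0108) in Lip-C mice and -0.72 ± 0.09 (adjusted p = 0.00143) in Lip-O mice. Rsph4a changed by 0.00 ± 0.13 (adjusted p = 0.996) in Lip-C mice and -0.71 ± 0.13 (adjusted p = 0.00641) in Lip-O mice, and Ropn1l, a protein associated with the spokes, by -0.08 in Lip-C mice and -0.05 in Lip-O mice, with neither past the threshold for Ropn1l.

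Of the 3 central pair genes tested, 1 rose with OBX in Lip-C mice and 1 fell in Lip-O mice. Hydin, a large protein of a central pair projection, averaged 369 ± 69.4 in Lip-C OBX mice and 241 ± 32.1 in Lip-C sham mice (SD, n = 3 each), a change of 0.58 ± 0.14 (adjusted p = 0.0213). Spag6l had a change of 0.51 ± 0.16 (adjusted p = 0.053) in Lip-C mice. Spag16 had signals of 408, 323 and 390.2 in Lip-C OBX mice, 302, 371 and 346 in Lip-O OBX mice, 292, 286 and 306 in Lip-C sham mice, and 392, 457 and 451 in Lip-O sham mice. The Lip-C sham arrays held 3 of the 4 lowest values, and the Lip-O sham arrays were above them without overlap. OBX changed Spag16 by 0.32 ± 0.11 (adjusted p = 0.0605) in Lip-C mice and -0.34 ± 0.11 (adjusted p = 0.0496) in Lip-O mice. A second probe set of Spag16 changed by 0.29 in Lip-O mice (adjusted p = 0.361 with every probe set tested), and with the probe sets averaged the Lip-O change was -0.02 (adjusted p = 0.91).

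Tektins and proteins of the doublet lumen were also divided. Of 9 such genes, OBX raised Cfap45 and Cfap52 in Lip-C mice and lowered Tekt1, Pifo, Cfap126 and Efhc2 in Lip-O mice. Tekt1, which forms filaments along the doublets, had signals of 1098, 1054 and 938 in Lip-C OBX mice, 753, 837 and 911 in Lip-O OBX mice, 1053, 1039.8 and 908 in Lip-C sham mice, and 1371, 1244 and 1235 in Lip-O sham mice. Its Lip-O sham arrays were the 3 highest of the 12, and 2 of the 3 Lip-O OBX arrays the lowest. The change was 0.04 ± 0.10 (adjusted p = 0.795) in Lip-C mice and -0.62 ± 0.10 (adjusted p = 0.00333) in Lip-O mice. Pifo was counted among these 9, although it is known as a protein of the ciliary base. Its signals were 3235, 2981 and 3325 in Lip-C OBX mice, 2254, 2807 and 2738 in Lip-O OBX mice, 3759.5, 3411 and 3443 in Lip-C sham mice, and 4287, 4270.4 and 4062 in Lip-O sham mice. The Lip-O OBX arrays were the 3 lowest and the Lip-O sham arrays the 3 highest, with a change of -0.15 ± 0.09 (adjusted p = 0.266) in Lip-C mice and -0.70 ± 0.09 (adjusted p = 0.00155) in Lip-O mice. Cfap126 and Efhc2 changed by -0.42 and -0.59 in Lip-O mice. Tekt2 and Tekt4, the other tektins, and Mns1 passed the threshold in neither liposome group.

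Cfap45 and Cfap52, which lie inside the doublets, followed another course. Cfap45 had signals of 358, 352 and 351 in Lip-C OBX mice, 257, 245 and 217 in Lip-O OBX mice, 195, 224 and 170.2 in Lip-C sham mice, and 270.5, 254 and 205 in Lip-O sham mice. All 3 Lip-C OBX arrays stood above the other 9, and the Lip-O groups overlapped. The change was 0.81 ± 0.12 (adjusted p = 0.00471) in Lip-C mice and -0.01 ± 0.12 (adjusted p = 0.954) in Lip-O mice. Cfap52 had signals of 1229.7, 891 and 828 in Lip-C OBX mice, 663, 851 and 794 in Lip-O OBX mice, 546, 513 and 479 in Lip-C sham mice, and 759, 1002 and 621 in Lip-O sham mice. Its Lip-C sham arrays were the 3 lowest of the 12, and the change was 0.90 ± 0.19 (adjusted p = 0.0117) in Lip-C mice and -0.03 ± 0.19 (adjusted p = 0.941) in Lip-O mice. A second probe set of Cfap52 changed by 0.68 in Lip-C mice (adjusted p = 0.0289 with every probe set tested).

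**Figure D3:**
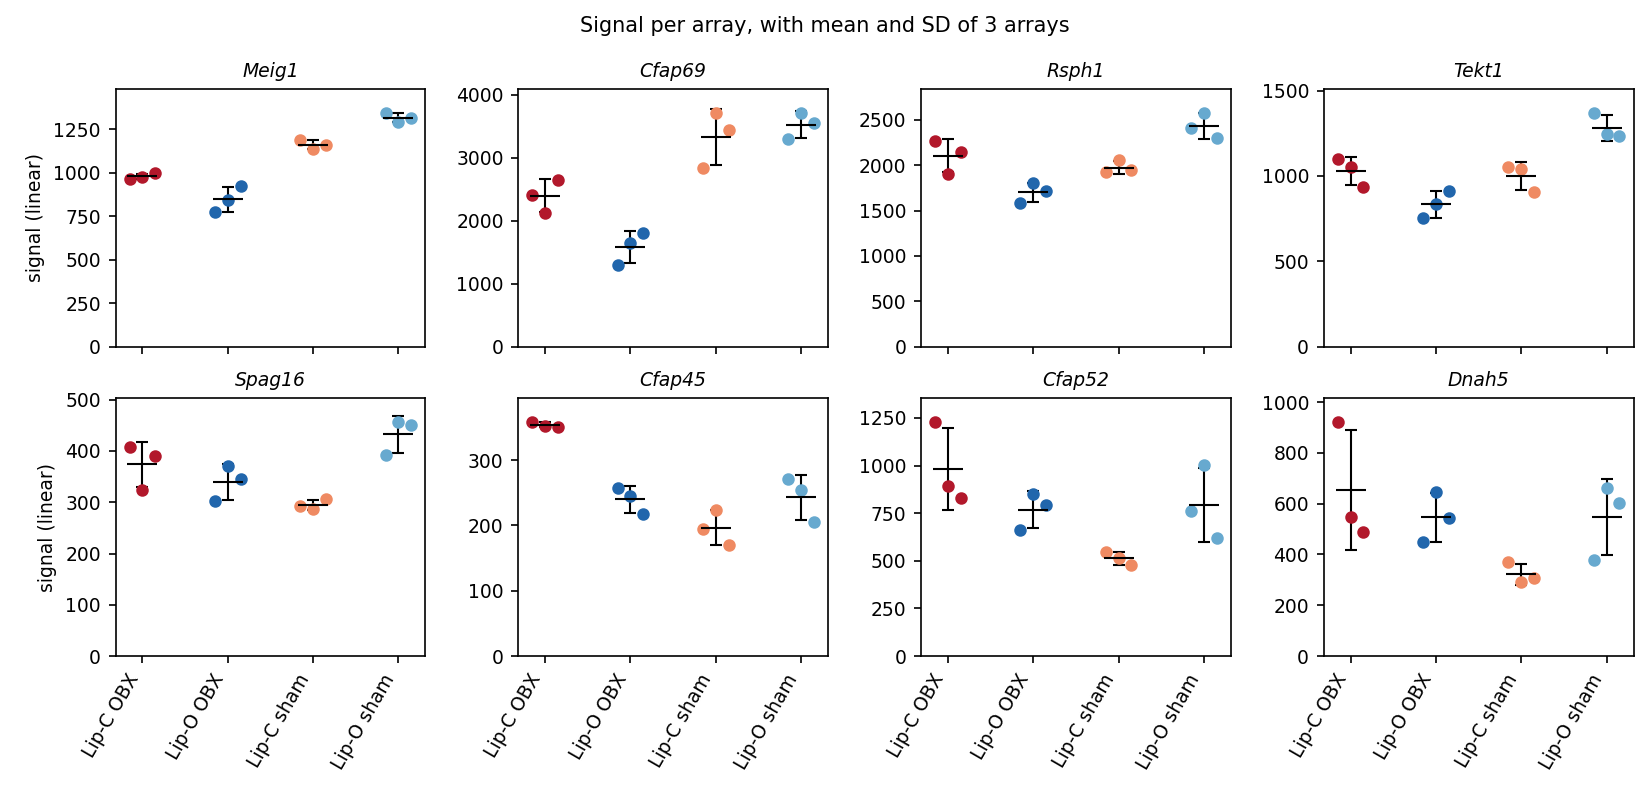
Signal on a linear axis for 8 members on each array (points), with the mean and SD of 3 arrays (black). Meig1, Cfap69, Rsph1 and Tekt1 have their lowest mean in Lip-O OBX mice, Spag16, Cfap45, Cfap52 and Dnah5 have theirs in Lip-C sham mice, and Cfap45 stands highest in Lip-C OBX mice.

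The largest fall among the members was that of Cfap69, a ciliary protein that in mice is also found in the cilia of olfactory neurons. Cfap69 had signals of 2416, 2128 and 2648 in Lip-C OBX mice, 1303, 1655 and 1807 in Lip-O OBX mice, 2839, 3706 and 3439.5 in Lip-C sham mice, and 3300.2, 3722 and 3558 in Lip-O sham mice. All 6 OBX arrays lay below all 6 sham arrays, with the Lip-O OBX arrays lowest, a change of -0.47 ± 0.14 (adjusted p = 0.0412) in Lip-C mice and -1.15 ± 0.14 (adjusted p = 0.00118) in Lip-O mice. Its other 2 probe sets changed by -1.42 and -1.59 in Lip-O mice. Meig1, known from mouse sperm formation, had signals of 966, 976 and 997 in Lip-C OBX mice, 777, 846 and 922 in Lip-O OBX mice, 1188, 1139 and 1157 in Lip-C sham mice, and 1346, 1292 and 1313 in Lip-O sham mice. The 4 groups of Meig1 did not overlap, and its change was -0.24 ± 0.07 (adjusted p = 0.0416) in Lip-C mice and -0.63 ± 0.07 (adjusted p = 0.00114) in Lip-O mice. 1110017D15Rik had signals of 2374, 2206 and 1937 in Lip-C OBX mice, 1477, 1828 and 1924 in Lip-O OBX mice, 2101, 1960.1 and 1769 in Lip-C sham mice, and 2401, 2518 and 2458 in Lip-O sham mice. Its Lip-C groups overlapped, its Lip-O OBX arrays were below the Lip-O sham arrays, and the change was 0.16 ± 0.11 (adjusted p = 0.349) in Lip-C mice and -0.50 ± 0.11 (adjusted p = 0.0134) in Lip-O mice.

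Ak7 and Ak8, adenylate kinases found in cilia, went apart. Ak8 fell in both liposome groups (-0.50 in Lip-C mice and -0.47 in Lip-O mice). Ak7 averaged 1377 ± 261 in Lip-C OBX mice and 810.3 ± 45.7 in Lip-C sham mice (SD, n = 3 each), and changed by 0.74 ± 0.17 (adjusted p = 0.0172) in Lip-C mice and -0.02 ± 0.17 (adjusted p = 0.944) in Lip-O mice. Tppp3, which promotes tubulin assembly, rose in Lip-C mice, with changes of 0.51 in Lip-C mice and 0.00 in Lip-O mice (adjusted p = 0.0183 and 0.985). Ccdc113 rose in Lip-C mice too, by 0.46 ± 0.13 (adjusted p = 0.0377). Spa17, a protein of sperm and cilia, fell in Lip-O mice, with changes of -0.24 ± 0.11 (adjusted p = 0.139) in Lip-C mice and -0.68 ± 0.11 (adjusted p = 0.0029) in Lip-O mice. Dynlrb2, a dynein light chain, fell in Lip-O mice, with a change of -0.28 ± 0.09 (adjusted p = 0.0493). Odf3b passed the threshold in neither liposome group on the probe set used for the gene (0.15 in Lip-C and -0.19 in Lip-O mice). Its other 2 probe sets changed by -0.47 (adjusted p = 0.0224 with every probe set tested, limma) and -0.48 (adjusted p = 0.0739) in Lip-O mice, where the OBX arrays lay below the sham arrays without overlap on both.

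**Figure D4:**
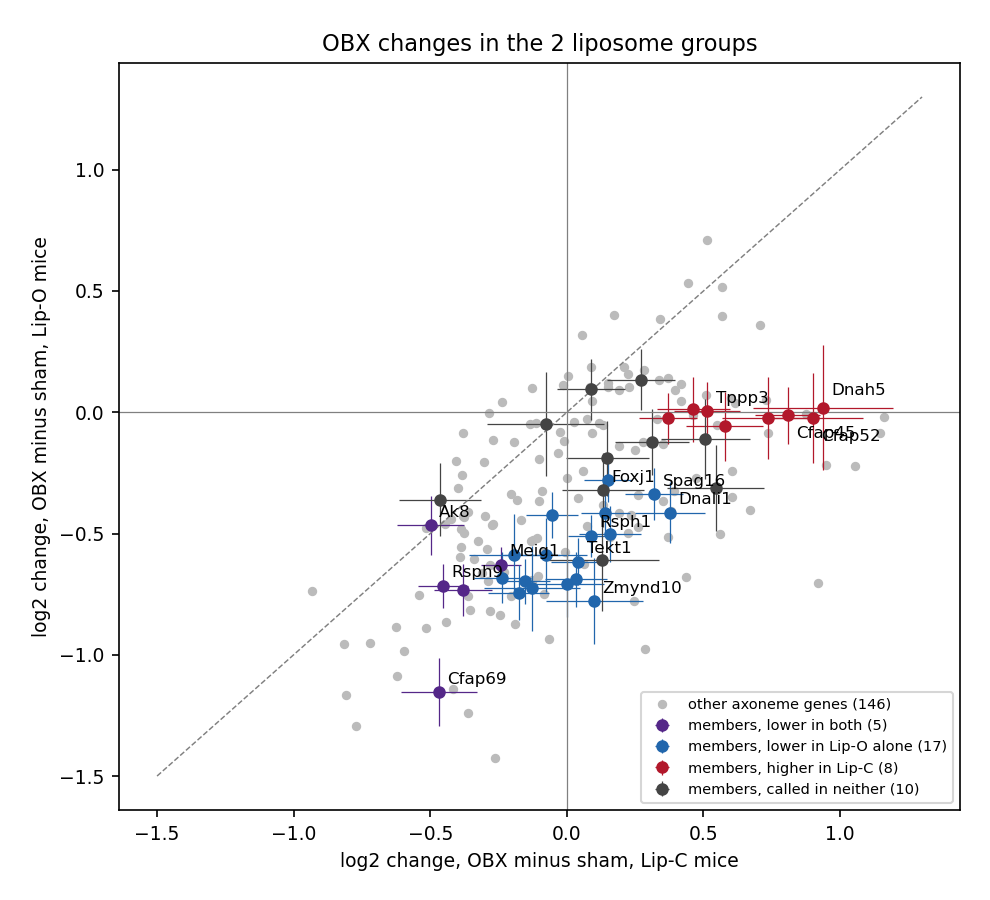
The x axis gives the log2 change with OBX in Lip-C mice and the y axis that in Lip-O mice; coloured points are the 40 members with standard errors, grey points the 146 other axoneme genes, and the dashed line marks equal changes. The 8 members raised in Lip-C mice lie between -0.06 and 0.02 in Lip-O mice, and the 5 lowered in both liposome groups lie at the lower left.

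The 5 members that OBX lowered in Lip-C mice (Ak8, Ccdc40, Cfap69, Meig1 and Rsph9) were all among the 22 lowered in Lip-O mice, which is 22.7% of those 22. The other 17 of the 22 changed by -0.24 to 0.38 in Lip-C mice. The 8 raised in Lip-C mice (Ak7, Ccdc113, Cfap45, Cfap52, Dnah5, Dnaic2, Hydin and Tppp3) changed by -0.06 to 0.02 in Lip-O mice. The remaining 10 were called in neither.

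Single arrays moved these counts. In Lip-C mice the calls of Rsph9, Cfap45 and Cfap52 held in each of the 12 fits that left out 1 array, and the other 10 of 13 did not. The count there became 3 without Lip-C OBX replicate 1, 5 without Lip-C OBX replicate 2, and 8, 5 and 4 without Lip-C sham replicate 1, 2 and 3. In Lip-O mice 14 of the 22 calls held whichever array was left out, and without Lip-O OBX replicate 1 the model called 14 members. With array medians set equal, 5 members were higher and 6 lower in Lip-C mice, where all genes shifted too (774 higher and 1654 lower, against 1403 and 1203). Dnaic2, Tppp3 and Ccdc113 then missed the threshold. Fitted on the 6 Lip-O arrays alone, 12 members were lower in Lip-O mice.

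The difference between the liposome groups was tested as the interaction, the OBX change in Lip-C mice minus that in Lip-O mice. It was positive for 36 of the 40 members, against 49.7% of all genes, and its median was 0.55, against -0.00 over all genes. No member passed the threshold, nor did any of the 13628 genes in limma (0% called). Without Lip-O OBX replicate 2, 159 genes passed, none of them a member. At an unadjusted p under 0.05, 31 members had a positive interaction and none a negative one, where 8.44% of all genes were positive and 9.19% negative. The lowest adjusted p was 0.0794, shared by Rsph1 (0.60 ± 0.12) and Cfap45 (0.82 ± 0.17). The other members under 0.1 were Tekt1 (0.66 ± 0.14), Dnah11 (0.72 ± 0.16), Dnali1 (0.79 ± 0.18), Dnaaf1 (0.56 ± 0.13) and Spag16 (0.66 ± 0.15), followed by Pifo (0.54 ± 0.13) with an adjusted p of 0.105.

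Rsph1 and Cfap45 came to their interactions by different routes, since Cfap45 was raised in Lip-C mice and Rsph1 lowered in Lip-O mice. Lrrc6, Ak8, Ropn1l and Dnah9 were the 4 members with an interaction below 0, between -0.10 and -0.01. On a second probe set the interaction was 1.57 for Dnali1, -0.23 for Spag16 and -0.05 for Dnaaf1. The second probe set of Dnah9 averaged 102 in Lip-C OBX, 147 in Lip-O OBX, 214 in Lip-C sham and 169 in Lip-O sham mice. That of Ropn1l averaged 106, 138, 136 and 126 in the same order. With the probe sets of a gene averaged, 30 members had a positive interaction and 1 a negative one at an unadjusted p under 0.05 (limma). The members' median lay between 0.48 and 0.58 when 1 array was left out, and no member passed the threshold under any alternative run. In simulated data of 13628 genes the interaction test recovered 15% of differences of 0.5 and 64% of differences of 1 on the log2 scale. There, 100 genes were changed by each size and normal noise was drawn independently for each gene, so the rates need not hold for the members. The members share arrays and may share cells, so their common sign is a description and has no p of its own.

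**Figure D5:**
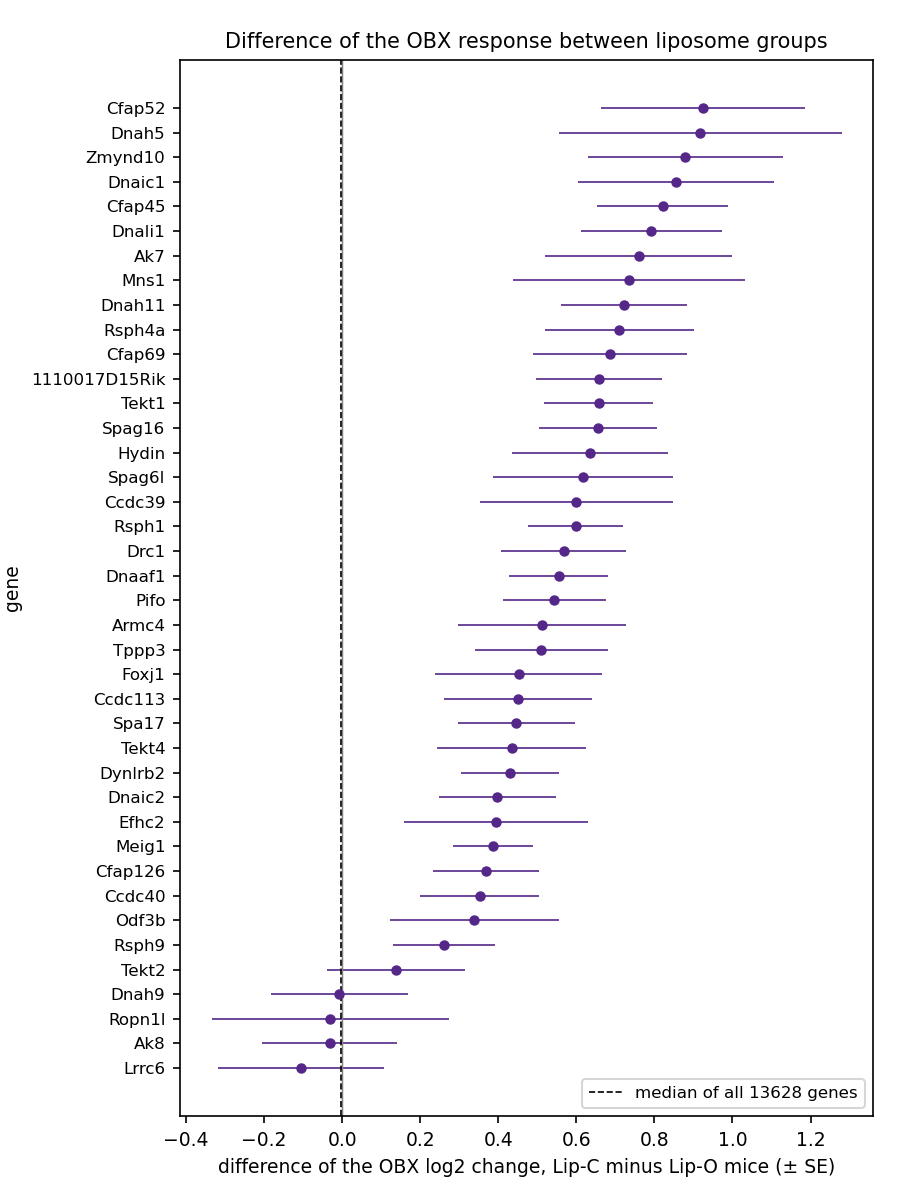
Points give the interaction of each of the 40 members (the OBX log2 change in Lip-C mice minus that in Lip-O mice) with its standard error, in order of size, and the dashed line the median of all genes. Values run from -0.10 for Lrrc6 to 0.92 for Cfap52, and 36 of 40 are above 0.

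After OBX, clodronate gave positive changes in 37 of 40 members (51.3% of all genes), none past the threshold in limma (0.125% of all genes were called higher). At an unadjusted p under 0.05, 20 members were higher in Lip-C OBX than in Lip-O OBX mice and none lower, against 6.6% and 6.08% of all genes. With the probe sets of a gene averaged, 20 were higher and 1 lower. The smallest adjusted p belonged to Drc1, which differed by 0.52 ± 0.11 (adjusted p = 0.102), and Dnah11, which differed by 0.52 ± 0.11 (adjusted p = 0.102). Without Lip-O OBX replicate 3, Drc1 passed the threshold (0.64, adjusted p = 0.0399). The median was 0.27, against 0.00 over all genes, and Lip-C OBX arrays lay wholly above Lip-O OBX arrays for 17 members (8.21% of all genes).

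Between sham-operated groups, clodronate gave negative changes in 38 of 40 members (49.4% of all genes), with 1 past the threshold. With array weights in the fit 7 passed, all lower. This comparison uses the same Lip-O sham arrays as the OBX comparison in Lip-O mice, and the same Lip-C sham arrays as that in Lip-C mice. Spag16 averaged 295 ± 10.1 in Lip-C sham mice and 433 ± 36.1 in Lip-O sham mice (SD, n = 3 each), a change of -0.53 ± 0.11 (adjusted p = 0.0396), where 0.814% of all genes were called lower. The call was kept in 5 of the 12 fits that left out 1 array, and lost without any 1 of the 6 sham arrays or without Lip-O OBX replicate 3. Its second probe set changed by 0.19 (adjusted p = 0.619 with every probe set tested). Tekt1 (-0.36, adjusted p = 0.0785), Rsph1 (-0.30, adjusted p = 0.0881) and Dynlrb2 (-0.30, adjusted p = 0.0901) missed the threshold. The members' median was -0.27, against 0.00 over all genes, and 19 were lower at an unadjusted p under 0.05, against 9.7% of all genes. Lip-C sham arrays lay wholly below Lip-O sham arrays for 22 members (13.4% of all genes). For 9 members the Lip-C arrays were wholly above the Lip-O arrays after OBX and also wholly below them after sham surgery, as for 1.03% of all genes. For 3 members the OBX arrays were wholly above the sham arrays in Lip-C mice and wholly below them in Lip-O mice, as for 0.675% of all genes. All 3 of the 3′ to 5′ ratios separated the Lip-C sham from the Lip-O sham arrays.

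Averaged over the liposome groups, OBX raised 4 members and lowered 17, against 19.2% and 13.5% of all genes. Rsph9 (-0.58 ± 0.06), Meig1 (-0.44 ± 0.05) and Cfap69 (-0.81 ± 0.10) fell with the smallest p of the members (adjusted p = 0.000322, 0.000407 and 0.000449). The 4 raised were Cfap45, Cfap52, Tppp3 and Ak7. With array medians set equal the split was 1 higher and 18 lower.

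In a wider list of other axoneme and motile cilium genes, 146 were tested. The list was drawn broadly, and some of its genes, such as Sptlc1 and Dnajb9, are not particular to cilia. It shares Dync2h1, Dync2li1 and Hspb11 with the list of intraflagellar transport genes, and Ulk4 with that of regulators. Of all genes, OBX raised 10.3% and lowered 8.83% in Lip-C mice, and raised 10.7% and lowered 8.83% in Lip-O mice. Of the 146, it raised 20 and lowered 21 in Lip-C mice, and raised 2 and lowered 64 in Lip-O mice, with medians of 0.00 and -0.35. Among the rises in Lip-C mice were those of Spata18 (1.16 ± 0.18, adjusted p = 0.00532), Cfap161 (1.14 ± 0.21, adjusted p = 0.0081) and Wdr78 (1.06 ± 0.17, adjusted p = 0.00531), and among the falls in Lip-O mice those of Maats1 (-1.43 ± 0.16, adjusted p = 0.00107), Spef2 (-1.29 ± 0.23, adjusted p = 0.0045) and Dnajb13 (-1.24 ± 0.14, adjusted p = 0.00115). The dynein heavy chains Dnah1 and Dnah2 changed by 0.57 and 0.40 in Lip-C mice and by 0.40 and 0.09 in Lip-O mice, and only Dnah1 in Lip-C mice passed (adjusted p = 0.0173). In sham mice clodronate raised none of the 146 and lowered 8 (0.814% of all genes were lowered), among them Spata18 (-1.02), Wdr78 (-0.81) and Calml4 (-0.78). After OBX clodronate lowered Calml4 (-0.74), a calmodulin-like protein, and raised Dnah7a (0.58), an inner arm heavy chain. Of all 13628 genes, it lowered 30 and raised 17 after OBX. The interaction was positive for 123 of 146 (49.7% of all genes), and none passed the threshold. At an unadjusted p under 0.05 it was positive for 59 (8.44% of all genes).

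Genes of intraflagellar transport and the BBSome serve motile and sensory cilia alike. Of 42 tested, OBX lowered 22 and raised none in Lip-C mice (8.83% and 10.3% of all genes). In Lip-O mice it lowered 30 and raised 1 (8.83% and 10.7%). The medians were -0.27 in Lip-C mice and -0.43 in Lip-O mice. Of the 30 lowered in Lip-O mice, 70% were lowered in Lip-C mice. Kif17, a motor of sensory cilia, changed by -1.06 ± 0.17 (adjusted p = 0.00528) in Lip-C mice and -0.90 ± 0.17 (adjusted p = 0.00605) in Lip-O mice. The BBSome genes Ttc8 (-0.63) and Bbs2 (-0.59) fell in Lip-C mice, and Ift80 (-0.79) and Bbs7 (-0.74) in Lip-O mice. Ift20 passed the threshold in neither, and Ift22 in Lip-O mice alone (-0.39). The interaction was positive for 34 of 42 (49.7% of all genes), with a median of 0.14. At an unadjusted p under 0.05 (limma), 4 of 42 were positive (8.44% of all genes). After OBX, clodronate gave positive changes in 37 of 42 (51.3% of all genes), none past the threshold. At an unadjusted p under 0.05, 9 of these genes were higher and none lower, against 6.6% and 6.08% of all genes.

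Regulators of multiciliated cells numbered 22 tested. Their calls with OBX stand beside 10.3% raised and 8.83% lowered among all genes in Lip-C mice. In Lip-O mice these shares were 10.7% and 8.83%. In Lip-C mice OBX raised Cdk1 (0.91), which is also a general kinase of dividing cells, and the centriole amplification protein Deup1 (0.84). It also raised the transcription factors Myb (0.77) and Trp73 (0.54) and lowered Ulk4 (-0.38) there. In Lip-O mice it raised Foxn4 (0.83) and Nfia (0.61) and lowered Rfx2, an X-box factor (-0.39 ± 0.09, adjusted p = 0.0166). Rfx3, another X-box factor, changed by -0.42 in Lip-C mice and -0.20 in Lip-O mice without passing the threshold. Stil, Cep152 and Plk4, which also serve the centrioles of dividing cells, were lower with clodronate in sham mice (-1.16, -0.95 and -0.89), and Stil was lower after OBX as well (-1.20). Of all 13628 genes, clodronate lowered 0.814% in sham mice and 30 genes after OBX.

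Mature olfactory neuron markers had median OBX changes of -0.45 in Lip-C mice and -0.85 in Lip-O mice, against 0.11 and -0.41 for the members. With clodronate in sham mice the markers' median was 0.07, against -0.27 for the members. Of 11 mature olfactory sensory neuron genes, OBX lowered 5 in Lip-C mice and 9 in Lip-O mice (8.83% of all genes in each). With clodronate none of the 11 passed the threshold in either surgical group. After OBX its change was positive for all 11, with a median of 0.36, against 0.27 for the members. At an unadjusted p under 0.05 (limma), 5 of the 11 were higher (6.6% of all genes). The interaction was positive for all 11, with a median of 0.39, against 0.55 for the members. At an unadjusted p under 0.05 it was positive for 2 (8.44% of all genes). The summed signal of the 11 was 77242 to 95223 in Lip-C OBX mice, 53131 to 86277 in Lip-O OBX mice, 112840.0 to 119853 in Lip-C sham mice and 105259 to 119897 in Lip-O sham mice. Omp, a defining marker of these neurons, averaged 12330.2 ± 1192 in Lip-C OBX mice, 8609.6 ± 2548 in Lip-O OBX mice, 15572 ± 979 in Lip-C sham mice and 16858 ± 1173 in Lip-O sham mice (SD, n = 3 each). The OBX change of Omp was -0.34 ± 0.17 (adjusted p = 0.176) in Lip-C mice and -1.01 ± 0.17 (adjusted p = 0.00397) in Lip-O mice, and its interaction was 0.67 ± 0.24 (adjusted p = 0.191). Gnal, the G protein of odorant signalling, changed by -0.45 in Lip-C mice and -0.53 in Lip-O mice. The part of these neurons in the members' changes was not tested.

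Of 14 respiratory secretory and goblet cell genes, 11 were tested. OBX raised 10.3% of all genes in Lip-C mice and 10.7% in Lip-O mice. Of the 11, it raised 2 in Lip-C mice (Agr2 and Spdef) and 3 in Lip-O mice (Muc5b, Spdef and Agr2), and lowered none. Their summed signal was 101155 to 117627 in Lip-C OBX mice, 97562 to 115046 in Lip-O OBX mice, 84740.1 to 89102 in Lip-C sham mice and 86844 to 100834 in Lip-O sham mice. Bpifa1 averaged 27487 ± 802 in Lip-C OBX mice, 26365 ± 2684 in Lip-O OBX mice, 23738 ± 282 in Lip-C sham mice and 26027 ± 2156 in Lip-O sham mice (SD, n = 3 each), and Scgb1a1, Scgb3a2 and Tff3 were below the filter. Their part in the members' changes was not tested. Of 9 genes of germ cells, which share axoneme genes, 7 were below the filter and the other 2 passed the threshold in no comparison. The summed signal of those 2 was low (95 to 215.9 per array), so no source of the members' RNA was tested with them.

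Tested were 8 sustentacular, 7 Bowman gland, 8 horizontal basal cell and 10 macrophage genes. In that order, OBX raised 1, 2, 5 and 7 in Lip-C mice (10.3% of all genes). In Lip-O mice (10.7% of all genes) it raised 3, 2, 3 and 5, and it lowered none in either liposome group. Of 8 immature neuron genes it lowered 1 in Lip-C mice (8.83% of all genes) and changed none in Lip-O mice. Clodronate raised none of the genes of these 5 lists. After OBX it lowered 1 sustentacular gene, Aldh1a7 (-0.54 ± 0.08, adjusted p = 0.0244), and 30 of all 13628 genes. In sham mice it lowered Aldh1a7 (-0.64 ± 0.08, adjusted p = 0.0127), the horizontal basal cell keratin Krt14 (-0.90 ± 0.17, adjusted p = 0.0312) and 2 of the 10 macrophage genes (0.814% of all genes). The summed signal of the 10 macrophage genes was 7215 to 9259 in Lip-C OBX mice, 7941 to 13417 in Lip-O OBX mice, 4059 to 5989 in Lip-C sham mice and 5417 to 11287 in Lip-O sham mice.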

How the data were processed

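Microarray expression was measured in 12 samples of olfactory epithelium from 4 groups, assigned by the sample titles. The values are linear intensities from the deposited value table, which holds the authors' processed signals for 45101 probe sets, and the trimmed mean (2% off each end) of every array came to 500. How probe signals were combined per probe set is not stated in the sources used here, and the precision is limited by the number of arrays. No 2 arrays shared more than 0.315% of their values.

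From these, log2(signal + 16) was computed. A probe set was kept when its signal exceeded the 40th percentile of its array on at least 3 arrays (28986 probe sets), and each gene was represented by its kept probe set with the highest mean signal (13628 genes). Of the probe sets, 34945 carried 1 gene in the platform annotation, 932 several and 9160 none, and only those with 1 gene were named; 34741 were matched to the reference gene table by identifier. A single model of the 4 group means over all 12 arrays was fitted with limma 3.58.1 (R 4.3.3) with moderated variances. It gave the change with OBX in each liposome group, the change with Lip-C in each surgical group, the interaction and the mean OBX change, with Benjamini-Hochberg adjustment over all genes and a threshold of 0.05. Fold changes of low signals are understated on this scale. The fit was tested on simulated data.

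Pairing by replicate number was checked before the fits were compared: 10 of 18 pairs of the same number correlated over 0.1 (range -0.0301 to 0.325). The median correlation was 0.126 for the same number and -0.0892 for others, so a tie between arrays of the same number was not excluded. The main fit did not use the numbers as pairs, and a fit with them as a block was run as an alternative. The members and the gene lists were chosen with earlier results of these data known. Values on all 12 arrays were given for Foxj1, for the 9 members with the smallest unadjusted p in the interaction and for further members that a count turned on. Full statistics were given for called members, up to 8 per comparison or where a role group needed them. For other lists, up to 3 called genes with the largest change and the first 2 genes were named. Alternatives covered the pseudocount, the filter, the normalization, the choice of probe set, the samples in the fit, moderation, array weights, the replicate block and leaving out each array.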

Additional observations from a re-analysis of the deposited data

Results flagged for a closer look

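In 3 members the OBX arrays moved one way in Lip-C mice and the other way in Lip-O mice without overlap, upwards with clodronate and downwards with empty liposomes, as in 0.675% of all 13628 genes. The difference between the liposome groups was 0.56 ± 0.13 log2 for Dnaaf1, 0.79 ± 0.18 for Dnali1 and 0.66 ± 0.15 for Spag16 (SE; adjusted p = 0.0925, 0.0925 and 0.0926, limma), and none passed the threshold.

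In 9 members the Lip-C arrays lay wholly above the Lip-O arrays after OBX and wholly below them after sham surgery, as in 1.03% of all genes. The size of the difference was 0.66 for 1110017D15Rik, 0.56 for Dnaaf1, 0.79 for Dnali1, 0.39 for Meig1, 0.54 for Pifo, 0.60 for Rsph1, 0.71 for Rsph4a, 0.66 for Tekt1 and 0.88 for Zmynd10. Their adjusted p ran from 0.0794 (Rsph1) to 0.132 (Zmynd10), so again none passed. Dnaaf1 and Dnali1 are in both sets, which rest on the same 12 arrays and the same interaction.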

How the results depend on the processing

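Of the member results refitted with 1 array left out, 2718 kept their side of the threshold, 144 lost their call, 18 gained one and no call reversed. Signs of uncalled changes were not all kept. For example, 4 members had an interaction below 0 in the main fit, and none without Lip-O OBX replicate 3. Ranges over those 12 fits, members called out of 40 and all genes called, were 3 to 15 and 840 to 3030 for the OBX change of Lip-C mice, 14 to 21 and 1414 to 2788 for the OBX change of Lip-O mice, 0 to 1 and 7 to 77 for Lip-C after OBX, 0 to 1 and 17 to 317 for Lip-C in sham mice, 0 and 0 to 159 for the interaction, and 15 to 23 and 3466 to 4679 for the OBX average. The 159 arose without Lip-O OBX replicate 2. The members' medians ranged from 0.05 to 0.13, -0.50 to -0.38, 0.21 to 0.32, -0.29 to -0.23, 0.48 to 0.58 and -0.19 to -0.13 in that order. Without the filter, 1725 genes and 7 members were called for the OBX change of Lip-C mice, 56 and 0 for Lip-C in sham mice, and 1 gene for the interaction. With array medians set equal the members' median for the OBX change of Lip-C mice was 0.027, and the OBX average called 1708 genes higher and 2241 lower, against 2611 and 1846. With probe sets averaged, no member was called for Lip-C in sham mice, and Dnah9 reversed to -0.43 for the OBX change of Lip-C mice and -0.24 for the OBX average. With each probe set tested, 4890 were called for the OBX change of Lip-O mice, 1449 for Lip-C in sham mice, 10 for the interaction and 7499 for the OBX average. With only the groups compared in the fit, 1577 genes and 12 members were called for the OBX change of Lip-O mice, 79 and 0 for Lip-C in sham mice, and 2 genes for Lip-C after OBX. Without moderation, no member was called for Lip-C in sham mice and 7 genes for Lip-C after OBX. With array weights, 4056 genes were called for the OBX change of Lip-C mice, 1268 genes and 7 members for Lip-C in sham mice, and 30 genes for the interaction. The causes were not tested beyond the fewer samples or added probe sets of those settings. Pseudocounts of 1 and 64 and quantile normalization left every count within 1.5 times. With the replicate number as a block, 15 members were called for the OBX change of Lip-C mice, 21 for the OBX change of Lip-O mice, 0 for Lip-C after OBX, 1 for Lip-C in sham mice and 0 for the interaction, and the median correlation was 0.126 for samples of the same number and -0.0892 for others.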
